A study of Mus musculus with 22 samples.

Results

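GFP-positive cells of 4 reporter clones of the mouse collecting duct line mpkCCD were compared with wild-type (WT) cells of the same line that carry no reporter. Both sides had received dDAVP (desmopressin, which activates the V2 receptor for vasopressin). The comparison uses 11 of the 22 libraries of the series, chosen by their labels: 8 GFP-positive libraries, 2 from each of the clones C1, C11, C43 and C50, and 3 libraries of unsorted WT cells. The other 11 libraries, which are 3 of WT cells given vehicle and 8 of the GFP-negative fractions of the same clones, also given dDAVP, are set beside the results for single genes. The title of the series names a GFP reporter and variability of aquaporin-2 from cell to cell as its subject. All cells derive from mpkCCDc11 secondary clone 38 and were grown on permeable supports, at the end in serum-free medium with 50 nM dexamethasone. The labels name dDAVP at 0.1 or 1 nM for 24 or 48 h without tying a dose or a time to a library. How the reporter was built, which promoter drives GFP and how the fractions were gated are not given in the sources used here. Each clone is a single cell line, and the 4 clones differ from the WT cells in being named clones, in carrying the reporter and in having been sorted, so effects of clone, reporter and sorting cannot be told apart. The 2 libraries of a clone are not said to come from separate cultures, and p-values then measure only the spread between these libraries, which may be technical.

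The principal cell of the collecting duct reabsorbs water and sodium. Vasopressin binds the V2 receptor (Avpr2) on its basolateral side and raises cyclic AMP, which moves the water channel aquaporin-2 (Aqp2) to the apical membrane and raises Aqp2 transcription. Sodium enters the cell through the epithelial sodium channel (ENaC) and leaves through the sodium pump. Intercalated cells, the other main cell type of the duct, handle acid and ammonia. The mpkCCD line is a widely used model of the principal cell because it expresses Aqp2 in response to dDAVP.

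Sequences upstream of 3 transcripts are shown because the results turn on them: Aqp2, the subject of the series, its neighbour Aqp5, and the ammonia channel gene Rhcg. Each stretch holds the 250 bases before the RefSeq start site on the gene's own strand, 5′ to 3′, from RefSeq on build GRCm38.p6 (Aqp2 at chr15:99578806-99579055 on the plus strand, Aqp5 at chr15:99590778-99591027 on the plus strand, Rhcg at chr7:79617658-79617907 on the minus strand). Capitals mark the core motif of the cyclic AMP response element, TGACG or its reverse complement CGTCA.
Aqp2: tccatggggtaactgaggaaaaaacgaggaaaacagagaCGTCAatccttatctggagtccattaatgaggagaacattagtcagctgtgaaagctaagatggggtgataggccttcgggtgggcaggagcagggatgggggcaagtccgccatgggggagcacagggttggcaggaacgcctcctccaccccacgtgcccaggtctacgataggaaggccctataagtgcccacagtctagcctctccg
Aqp5: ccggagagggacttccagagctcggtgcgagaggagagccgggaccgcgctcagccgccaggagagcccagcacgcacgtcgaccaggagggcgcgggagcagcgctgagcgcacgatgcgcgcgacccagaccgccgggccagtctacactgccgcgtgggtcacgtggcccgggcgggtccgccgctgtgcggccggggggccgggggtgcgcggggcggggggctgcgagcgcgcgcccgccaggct
Rhcg: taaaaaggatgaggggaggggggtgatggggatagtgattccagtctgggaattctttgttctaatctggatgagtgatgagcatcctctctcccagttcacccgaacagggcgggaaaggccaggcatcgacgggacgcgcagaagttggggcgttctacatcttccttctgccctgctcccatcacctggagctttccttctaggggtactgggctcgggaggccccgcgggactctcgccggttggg
The motif occurred 1 time in the Aqp2 stretch, ending 206 bases before the start site, and was not found in the other two. It occurs in 17.8% of the 32851 stretches of this length in the RefSeq table. A match is a description of the letters and not evidence of binding.

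Expression is given as TPM, a transcript abundance corrected for length, as the authors deposited it. TPM are scaled to the same total in every library and keep no depth, so the depth behind each value is unknown. A change is a difference of mean log2(TPM + 1), a scale on which low genes appear to change less than they do. Genes with a mean of at least 1 TPM over the 11 libraries were tested with limma, and a gene is called where the Benjamini-Hochberg adjusted p is under 0.05. Genes with a TPM above 0 numbered 20250 to 31292 per WT library and 18510 to 29973 per GFP-positive library. The widest gap in that number split each clone into 1 library with more and 1 with fewer genes, and the WT libraries into 2 with more (replicates 2 and 3) and 1 with fewer (replicate 1), so values are also given within these sets. Log2 levels across genes correlated at r 0.961 to 0.980 within groups and 0.939 to 0.963 between WT and clone libraries.

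The reporter transcript matched the labels. GFP was listed at 0, 0.33 and 0.79 TPM in the 3 WT libraries and at 1065 to 1567 TPM (median 1292) in the 8 GFP-positive libraries. The groups did not overlap, and the change was 9.93 ± 0.14 on the log2 scale (SE, limma adjusted p 3.3e-10; two-sided exact permutation test over 165 arrangements p 0.00606, the smallest they allow). In the GFP-negative fractions GFP was at 5.31 to 17.6 TPM. The 4 clones did not differ detectably in GFP (moderated F-test, limma adjusted p 0.40). Within the sets with more and fewer genes detected the GFP change was 9.67 and 10.4.

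Aqp2 did not separate GFP-positive cells from WT cells. The 3 WT libraries held 2820, 3025 and 2759 TPM. Clone C1 held 2027 and 2008 TPM, C11 2896 and 3108, C43 6649 and 7254, and C50 4894 and 4409. C1 therefore lay below all 3 WT libraries, C11 among them or just above, and C43 and C50 above them. The average change over the 4 clones was 0.38 ± 0.05 (SE, limma adjusted p 0.00078), but this error holds only the spread between libraries of a clone. Over the libraries as such, a two-sided exact permutation test gave p 0.364. It treats the 2 libraries of a clone as independent, which they are not. Without C43 the average change was 0.09 (limma adjusted p 0.27), while without C1 it was 0.68. The change was called lower in C1 (-0.51, limma adjusted p 0.0011), higher in C43 (1.28, limma adjusted p 3.7e-06) and C50 (0.70, limma adjusted p 0.00017), and not called in C11 (0.07, limma adjusted p 0.58). Within the sets with more and fewer genes detected the average was 0.32 and 0.46.

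**Figure D1:**
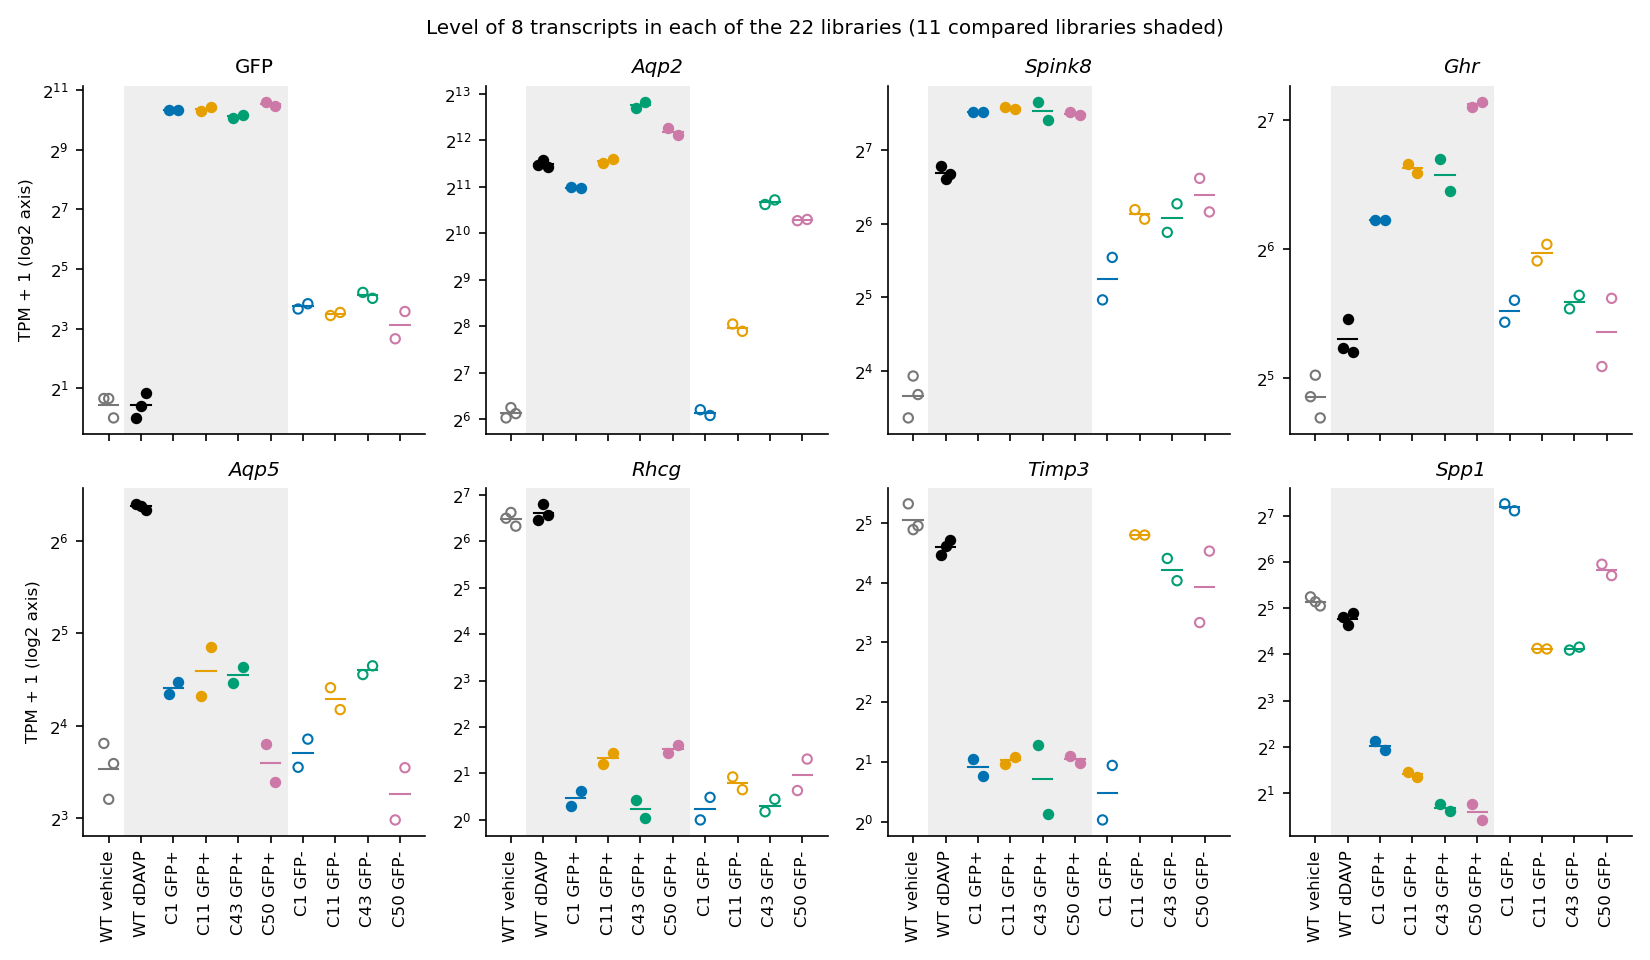
TPM + 1 on a log2 axis for 8 transcripts (each point 1 library, bars the mean of the log2 values of a group), with WT vehicle and the GFP-negative fractions as open symbols and the 11 compared libraries on grey. GFP, Spink8 and Ghr are higher in all 8 GFP-positive libraries than in the 3 WT dDAVP libraries, Aqp2 overlaps, and Aqp5, Rhcg, Timp3 and Spp1 are lower.

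Of 13150 genes tested, 2864 (21.8%) were called in the average of the 4 clones, 856 higher (6.51%) and 2008 lower (15.3%). The same contrast for single clones called 2441 genes for C1 (18.6%), 2047 for C11 (15.6%), 3722 for C43 (28.3%) and 2494 for C50 (19.0%). More genes were lower than higher in each clone: 12.1% against 6.45% of genes for C1, 9.26% against 6.30% for C11, 20.2% against 8.09% for C43 and 12.7% against 6.27% for C50. Under median-ratio scaling the order turned for C1 (1225 higher, 1012 lower) and C11 (1062 and 913) but not for C43 (1591 and 1718) or C50 (1098 and 1263). Quantile normalization turned it for C11 alone (1118 and 1077). Counts of gene lists by clone, given further on, stand against the shares of each clone above. All 4 contrasts use the same 3 WT libraries, so genes they share are partly fixed by those libraries. In all 4 clones and in one direction, 324 genes (2.46%) were called, 59 higher (0.449%) and 265 lower (2.02%). For each of the 324 genes all 8 GFP-positive libraries lay beyond all 3 WT libraries, as for 9.24% of all genes tested (1.84% higher and 7.40% lower). Their sign within the sets with more and fewer genes detected is thereby fixed and is no separate check. The falls were larger than the rises, with a median change of -0.89 for the 265 and 0.63 for the 59, and a fall of at least 1 log2 unit in every clone was found for 63 genes against 1 such rise, GFP itself.

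The count of genes called on average depends on what is taken as the replicate. With each clone's mean as 1 value (4 clones against 3 WT libraries), 140 genes were called, 12 higher and 128 lower, and 139 of them were among the 2864. Of 85 genes named here and called on average, 35 kept their call with clone means and 50 did not. Among those lost, Aldh3b2, Atf3, Ceacam19, Phgdh, Srxn1, Synpo and Upk3bl had been called in all 4 single-clone contrasts, as had others named with their groups. Aqp2, Aqp4, Aqp6, Areg, Ccn2, Col4a1, Epcam, Fos, Fxyd2, Fxyd4, Gdf15, Hsd11b2, Hspa5, Ifi44, Ifit1, Jund, Krt19, Lcn2, Lypd6b, Mcm7, Mgst1, Pde4b, Ppic, Rrm2, Slc4a9, Tmprss4 and Zfp36 had not been called in all 4 and were lost too. Without WT replicate 3, 1532 genes were called on average and 164 in all 4 clones. The count for all 4 clones was also more than 1.5 times lower without C1 replicate 1 or 2 (155 and 161), C11 replicate 1 or 2 (173 and 190) or C50 replicate 2 (209), and higher over 3 clones without C1 (766) or C43 (502). Single-clone counts fell to 897 and 997 for C1, 790 and 823 for C11, and 1269 and 1050 for C50 when one of the clone's own libraries was left out, and to 1559, 1232 and 1541 for these clones without WT replicate 3. With 1 WT library or 1 clone left out, 3.29% to 7.49% of all genes were called higher on average and 8.43% to 15.5% lower. Counts of gene lists in such fits stand against these shares. With all 11 libraries, the median change over all genes was -0.07. The 10 most abundant genes of a library held 7.22% to 9.5% of its TPM in GFP-positive libraries and 6.64% to 7.26% in WT, and the part of this in the falls was not tested. Median-ratio scaling, which brings it to 0.003, gave 116 genes higher and 163 lower in all 4 clones, and quantile normalization 102 and 206. For the average of the 4 clones these scalings gave 1307 higher and 1263 lower, and 1403 and 1495. The excess of falls in the average was thus not kept under median-ratio scaling.

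**Figure D2:**
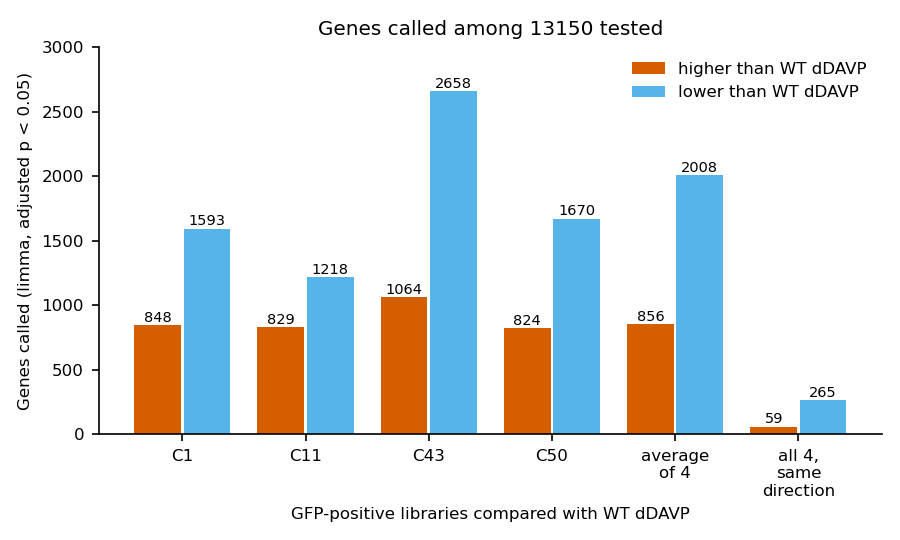
Number of genes called higher or lower than WT dDAVP (limma, adjusted p under 0.05) in each clone, in the average of the 4 clones and in all 4 clones in the same direction. C43 has the most calls (1064 higher, 2658 lower), and 59 and 265 genes are shared by all 4 clones.

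The largest fall was that of Rhcg (ENSMUSG00000030549), which encodes an ammonia channel of intercalated and principal cells. WT cells with dDAVP held 86.4, 111 and 93.1 TPM, and the 8 GFP-positive libraries 0.03 to 2.04 TPM (median 0.93). The mean was 97.7-fold lower in GFP-positive cells (log2 change -5.72 ± 0.15 SE, limma adjusted p 3.6e-08). The GFP-negative libraries were as low, at 0 to 1.48 TPM, and the WT vehicle libraries as high as the WT dDAVP libraries, at 89.1, 97.2 and 79.1 TPM. Rhcg was thus high in all 6 WT libraries and near 0 in all 16 clone libraries, whichever fraction they came from. Within the sets with more and fewer genes detected the change was -5.71 and -5.64.

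Aqp5 (ENSMUSG00000044217), the gene next to Aqp2 on chromosome 15, encodes a water channel best known from glands, lung and cornea, and was picked after its values were seen. WT cells with dDAVP held 83.4, 82.1 and 79.8 TPM against 9.46 to 27.8 TPM (median 20.2) in GFP-positive cells, which is 4.23-fold lower on average (log2 change -2.09 ± 0.12 SE, limma adjusted p 8.7e-06, called in all 4 clones). The GFP-negative libraries held 6.89 to 24.0 TPM, and WT cells with vehicle 13.0, 8.21 and 11.0 TPM. Aqp5 in both fractions of the clones was therefore closer to the vehicle level than to the dDAVP level of WT cells. Its change was -1.78 to -1.97 in C1, C11 and C43 and -2.78 in C50, whereas Aqp2 in C50 was above the WT level.

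In a wider look at all 22 libraries, 15 of 13244 genes (0.113%) had all 16 clone libraries beyond all 6 WT libraries, 6 higher (0.0453%) and 9 lower (0.0680%). This comparison was added after the data were seen. Beside Rhcg and GFP they included Piezo2, a mechanically gated channel gene, at 3.55 to 6.68 TPM in WT and 0 to 1.56 TPM in clone libraries. Ppic, a cyclophilin gene, was at 10.5 to 12.7 TPM in WT and 0.45 to 10.1 TPM in clone libraries, its highest values being those of C1 GFP-positive cells. Upk3bl, a uroplakin-like gene, was higher, at 114 to 153 TPM in WT and 168 to 343 TPM in clone libraries. Jund, an AP-1 transcription factor gene, was at 866 to 1015 TPM in WT and 422 to 836 TPM in clone libraries.

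The 12 falls named by rule included 3 genes of secreted matrix proteins or of matrix turnover. Fbln2, the matrix glycoprotein fibulin-2, was at 22.7, 25.2 and 24.1 TPM in WT and 0 to 2.59 TPM (median 0.52) in GFP-positive libraries (change -3.87 ± 0.26 SE, limma adjusted p 1.9e-05). Timp3, an inhibitor of matrix metalloproteinases, was at 21.0, 23.6 and 25.3 TPM in WT and 0.09 to 1.44 TPM (median 1.03) in GFP-positive libraries (change -3.68 ± 0.23 SE, limma adjusted p 1.1e-05). Spp1, the secreted phosphoprotein osteopontin, was at 26.9, 23.8 and 28.7 TPM in WT and 0.34 to 3.37 TPM (median 1.12) in GFP-positive libraries (change -3.60 ± 0.14 SE, limma adjusted p 5.7e-07). All 3 genes were at least 18.0-fold lower by the ratio of means. The GFP-negative libraries of the same clones held more, 8.84 to 96.4 TPM for Fbln2 and 16.1 to 152 TPM for Spp1. Timp3 in GFP-negative cells was at 9.08 to 26.9 TPM in C11, C43 and C50 but at 0.02 and 0.92 TPM in C1, the clone in which both fractions were low.

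Slc4a11, a borate transporter-like membrane protein of the SLC4 family, was at 110, 115 and 113 TPM in WT and 6.21 to 21.4 TPM (median 8.26) in GFP-positive libraries (change -3.44 ± 0.09 SE, limma adjusted p 3.6e-08). Wnt10a, a Wnt ligand, fell by 2.97 ± 0.17 (SE) from 27.7 to 32.8 TPM in WT to 1.54 to 5.62 TPM. Tnfrsf12a, the receptor of the cytokine TWEAK, fell by 2.35 ± 0.10 from 432 to 623 TPM to 68.8 to 155 TPM. Emp3, a small membrane protein gene, fell by 2.72 ± 0.27, Basp1, a membrane-bound signalling protein gene, by 2.38 ± 0.10, and Dok7, an adaptor of the receptor MuSK, by 1.97 ± 0.18. In all 6 genes the GFP-positive libraries lay below the WT libraries, while the GFP-negative average was 0.14 to 0.68 above WT. The remaining falls were those of Trib3, a pseudokinase induced by the integrated stress response (-2.38 ± 0.12, from 113 to 130 TPM to 14.1 to 30.4 TPM), and Arid5a, an RNA-binding protein that stabilises inflammatory mRNAs (-2.29 ± 0.13, from 20.5 to 22.9 TPM to 2.25 to 4.80 TPM).

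The 12 rises named by rule were smaller. Arhgdib was at 133, 145 and 130 TPM in WT and 264 to 675 TPM (median 363) in GFP-positive libraries, a 3.02-fold difference of means (change 1.51 ± 0.05 SE, limma adjusted p 3.7e-07), and C11 was the highest clone. Ghr, the growth hormone receptor, was at 36.6, 42.9 and 35.8 TPM in WT and 73.4 to 140 TPM (median 97.5) in GFP-positive libraries (change 1.34 ± 0.08 SE, limma adjusted p 6.8e-06), and C50 was the highest clone. Spag1, a co-chaperone of dynein arm assembly, was at 11.3, 12.7 and 14.4 TPM in WT and 24.5 to 59.1 TPM (median 31.2) in GFP-positive libraries (change 1.35 ± 0.09 SE, limma adjusted p 1.6e-05). Synpo (1.00 ± 0.15), which encodes an actin-binding protein, and Lzts3 (0.94 ± 0.14), a leucine zipper protein gene, rose in all 4 clones, with no difference detected among them (moderated F-test, limma adjusted p 0.17 and 0.49). Enzyme genes among the rises were Aldh3b2, an aldehyde dehydrogenase (1.16 ± 0.10), Gsta4, a glutathione transferase (0.92 ± 0.07), and Dhrs3, a retinal reductase (0.87 ± 0.08). Tpd52l1 (0.93 ± 0.06) and Ceacam19 (0.81 ± 0.12) also rose in all 4 clones.

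Spink8 and Krt23 rose above a level that was already raised in WT cells with dDAVP. Spink8, a protease inhibitor of the Kazal family, was at 9.30, 14.3 and 11.8 TPM in WT cells with vehicle, at 109, 96.7 and 101 TPM with dDAVP, and at 168 to 200 TPM (median 182) in GFP-positive libraries. Its change against WT dDAVP was 0.84 ± 0.06 (SE, limma adjusted p 3.9e-05), and it ranged only from 0.80 to 0.88 over the 4 clones, with no difference detected among them (moderated F-test, limma adjusted p 0.91). Its GFP-negative libraries held 30.2 to 97.0 TPM. Krt23, an epithelial keratin, was at 19.4 to 21.0 TPM with vehicle, 74.7 to 87.6 TPM with dDAVP and 119 to 172 TPM (median 135) in GFP-positive libraries (change 0.77 ± 0.06 SE, limma adjusted p 3.3e-05). In GFP-negative libraries it was at 32.4 to 66.4 TPM, between the vehicle and dDAVP levels of WT cells.

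**Figure D3:**
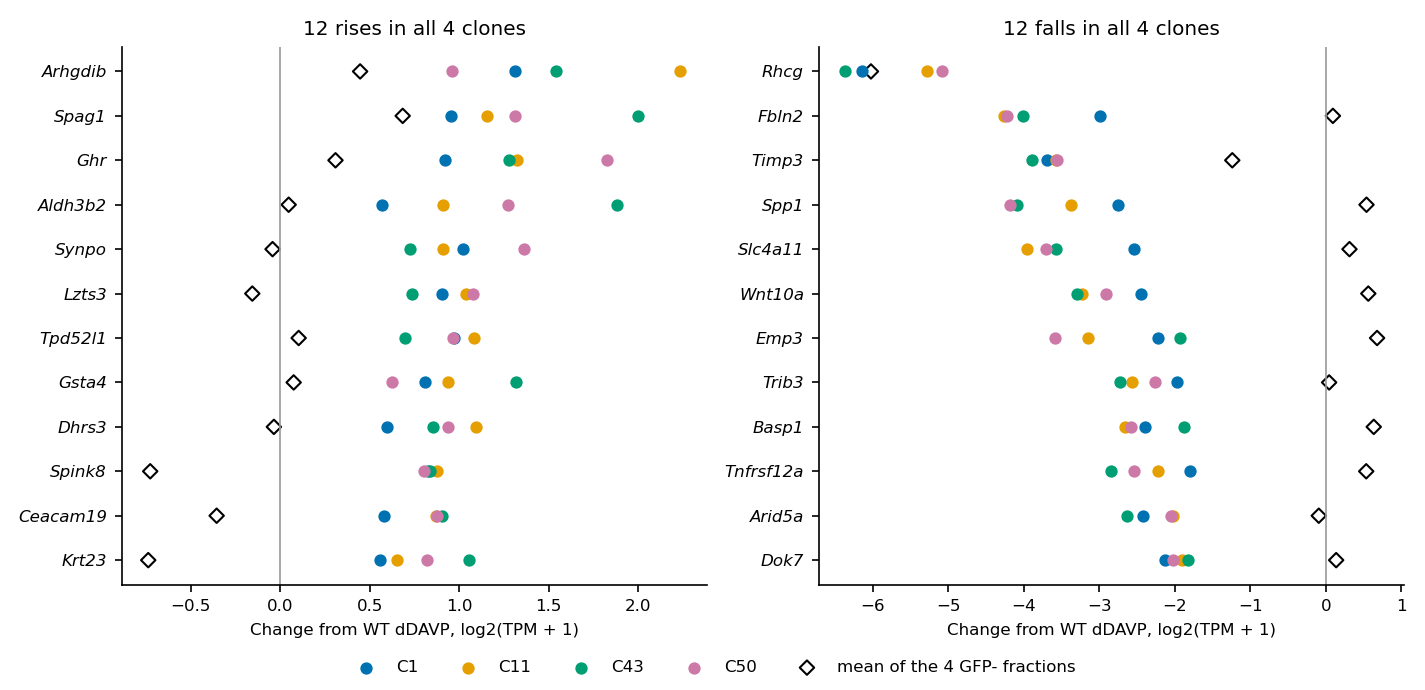
Change from WT dDAVP in log2(TPM + 1) for the 12 rises (left, GFP left out) and 12 falls (right) named by rule, with 1 filled point per clone and an open diamond for the average of the 4 GFP-negative fractions. Filled points lie on one side of 0 for every gene; the diamonds for the falls run from -6.03 for Rhcg to 0.68 for Emp3, with Timp3 at -1.24.

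Principal cell genes leaned towards higher values. Of 22 markers, 15 were tested, 7 rose, Aqp2 among them (46.7%, against 6.51% of all genes) and 2 fell (13.3%, near the 15.3% of all genes), with a median change of 0.37 against -0.07 over all genes. Avpr2, the V2 receptor, was at 260, 282 and 244 TPM in WT and 324 to 385 TPM (median 349) in GFP-positive libraries (change 0.43 ± 0.05 SE, limma adjusted p 0.00053), and was called in all 4 clones. Scnn1g, the gamma subunit of ENaC, was at 13.9, 19.0 and 13.3 TPM in WT and 21.0 to 31.6 TPM (median 26.5) in GFP-positive libraries (change 0.74 ± 0.11 SE, limma adjusted p 0.0013), also called in all 4. WT cells with vehicle held 27.6, 28.4 and 23.2 TPM of Scnn1g, within the GFP-positive range, and 172 to 183 TPM of Avpr2, below both groups. For both genes the GFP-negative libraries were lower than WT dDAVP on average, by 0.73 and 0.40. Neither was called with clone means as replicates. Fxyd4, a regulator of the sodium pump, rose on average by 0.81 ± 0.06, but ranged from -0.25 in C1 to 2.17 in C43, and the average without C43 was 0.35. The 2 falls were those of Aqp4, a basolateral water channel (-1.37 ± 0.32, and 0.62 in C11), and Hsd11b2, which inactivates glucocorticoid (-0.64 ± 0.18, and 0.31 in C50). Aqp4 was not called without WT replicate 2 or 3 or without C50, and Hsd11b2 was not called without any 1 WT replicate, C1 replicate 2, C11 replicate 1, either C50 replicate or C11. Hsd11b2 was also not called under median-ratio scaling or quantile normalization, and lost its call in 16 of 29 alternatives. Without WT replicate 1 or 3, or without C11, 4 principal cell genes rather than 7 rose, in fits where 3.29% to 4.64% of all genes rose. The median was 0.23 without WT replicate 1 and 0.25 without C11. The other 7 markers did not reach a mean of 1 TPM, among them Scnn1b, the beta subunit of ENaC, at 0.82 TPM at most.

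Of 19 sodium pump and channel genes tested, 9 rose (47.4%, against 6.51% of all genes) and 3 fell (15.8%, near the 15.3% of all genes), and the median change was 0.08. Atp1b1, the pump's beta subunit, was at 588, 639 and 609 TPM in WT and 739 to 906 TPM (median 789) in GFP-positive libraries, with changes of 0.36 to 0.42 in the 4 clones (average 0.39 ± 0.07 SE, limma adjusted p 0.0026). Sgk1, a kinase that raises ENaC activity, rose on average by 1.12 ± 0.07 (limma adjusted p 8.7e-06) but by 0.27 in C1, where it was not called, against 1.67 in C11. Neither Atp1b1 nor Sgk1 was called with clone means as replicates. Fxyd2, the gamma subunit of the pump, was called lower in C1 (-1.50) and higher in C43 (1.87) and C50 (2.26), and its average of 0.62 was not called without C43 (0.20) or C50 (0.07). Without WT replicate 3, 5 genes of the list rose and 1 fell, where 3.29% of all genes rose and 8.43% fell. Without C11 or C43 1 fell, where 13% and 14.7% of all genes fell. The list's median ranged from 0.02 without WT replicate 1 to 0.25 without C1.

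Markers of 4 other cell types were low and those of 2 were not, and their part in the results was not tested. Of 18 intercalated cell markers 8 were tested, against all-gene shares of 6.51% higher and 15.3% lower: 1 rose (Slc4a9, 0.93 ± 0.18, not called without C50) and 2 fell (Rhcg and Aqp6, the latter -0.75 ± 0.20 and not called without C50, WT replicate 2 or 3, C1 replicate 2 or C11 replicate 2). The defining intercalated genes Foxi1, Slc4a1 and Slc26a4 were at 0.10, 0.05 and 0.32 TPM at most. Summed levels of the 18 markers were 193 to 241 TPM in WT and 111 to 200 TPM in GFP-positive libraries, of which Rhcg alone made up 86.4 to 111 TPM in WT. For the proximal tubule (12 markers), thick limb and distal tubule (9), immune cells (11) and endothelium (8), 1 marker each reached a mean of 1 TPM and 0 were called on average. In single clones the proximal tubule marker was called lower in C1 (-0.73) and higher in C11 (1.05), and the immune marker higher in C43 (1.02). Summed levels of these 4 cell types in GFP-positive libraries were 4.02 to 17.4, 1.41 to 5.85, 3.27 to 11.8 and 0.94 to 3.74 TPM. In WT libraries the sums were 5.56 to 9.96, 1.87 to 4.77, 4.23 to 7.94 and 0.70 to 5.89 TPM. Of 19 fibroblast and mesenchymal markers 3 were tested and 2 fell: Fn1, the matrix protein fibronectin, from 28.7, 45.0 and 29.4 TPM to 0.62 to 12.6 TPM (change -2.73 ± 0.21 SE, limma adjusted p 4.1e-05), and S100a4, a calcium-binding protein, from 29.7 to 34.7 TPM to 8.94 to 18.0 TPM (change -1.25 ± 0.12 SE, limma adjusted p 0.00013). Vim and Col1a1, which define such cells, were at 0.15 and 0.66 TPM at most. The 19 summed to 68.2 to 80.2 TPM in WT and 15.9 to 39.1 TPM in GFP-positive libraries. In RNA from bulk cells, fewer cells of a kind and less RNA per cell cannot be told apart.

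Of 28 matrix and integrin genes tested, 0 rose and 10 fell on average (35.7%, against 15.3% of all genes; median change -0.31), and Fbln2, Spp1 and Lamb3 fell in all 4 clones. By clone, 4 rose and 5 fell in C1, 0 and 7 in C11, 0 and 17 in C43, and 4 and 9 in C50. Lamb3, a laminin chain, was at 36.4, 37.9 and 31.4 TPM in WT and 9.75 to 21.9 TPM in GFP-positive libraries (-1.27 ± 0.13, limma adjusted p 0.00016). Col4a1, a basement membrane collagen, fell on average by 1.60 ± 0.20 but was at 11.6 and 11.8 TPM in C1, above the WT libraries. The fall count was 6 without WT replicate 2 and 5 without WT replicate 3, where 13.1% and 8.43% of all genes fell. The median was -0.10 without C43. Of 14 targets of YAP, the effector of the Hippo pathway, 1 rose (7.14%, near the 6.51% of all genes) and 5 fell (35.7% against 15.3%), and the median of -0.08 was near the -0.07 over all genes, with Ankrd1 (-1.60 ± 0.09) and Ajuba (-0.98 ± 0.10) called in all 4 clones but not with clone means as replicates. In C1, 3 YAP targets rose and 3 fell. Without C43, 3 YAP targets rose and 4 fell, and their median was 0.12, against -0.19 without C1. Of 23 tight junction and adhesion genes 3 rose and 4 fell, against 6.51% and 15.3% of all genes, so that the falls are near the background; Cldn6, an embryonic claudin, was at 404, 366 and 438 TPM in WT and 117 to 255 TPM in GFP-positive libraries (-1.39 ± 0.07, limma adjusted p 3e-06, called in all 4 clones), and Epcam was called on average only (-0.34 ± 0.05). The median of the junction list was -0.07, and 0.02 under median-ratio scaling. Without WT replicate 1 or 3, 1 junction gene rose and 2 fell, without C1 replicate 1 or C11 replicate 1 2 fell, and without C50 1 rose. The junction median ranged from -0.12 without C50 to 0.004 without WT replicate 2. Of 8 keratins 4 rose, against 6.51% of all genes, led by Krt23 and then Krt19 (0.46 ± 0.04, though -0.07 in C1), 2 without WT replicate 3, and 0 fell on average, with a median of 0.11 that was 0.04 without C43. In C50, 3 keratins rose and 2 fell (median -0.05).

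Genes of cell division were lower in 3 of the 4 clones. Of 35 genes of G2 and mitosis, 32 fell on average (91.4%, against 15.3% of all genes) and 0 rose (median change -0.74). By clone, 30 fell in C11, 35 in C43 and 30 in C50, but 1 fell and 2 rose in C1, where 12.1% of all genes fell and 6.45% rose. Cenpa, the histone of the centromere, was the one called in all 4: 124, 85.5 and 119 TPM in WT and 35.7 to 69.8 TPM (median 49.0) in GFP-positive libraries (-1.12 ± 0.12, limma adjusted p 0.00029). Birc5, the inhibitor of apoptosis survivin, fell by 1.12 ± 0.13 and Ccna2, cyclin A2, by 1.04 ± 0.13, with changes of -0.47 and -0.13 in C1, and neither was called with clone means as replicates. Of 35 genes of S phase, 18 fell on average (51.4%, against 15.3% of all genes; median -0.23), but 18 rose in C1 while 8, 22 and 27 fell in C11, C43 and C50. Rrm2, a subunit of ribonucleotide reductase, was at 120, 104 and 137 TPM in WT, at 173 and 158 TPM in C1 and at 38.9 to 61.4 TPM in the other 3 clones. Mcm7, a subunit of the replicative helicase, was at 253, 254 and 264 TPM in WT and 270 and 294 TPM in C1, against 119 to 185 TPM in the others. The S phase count was 11 without WT replicate 3 and 8 without C50, where 8.43% and 13.2% of all genes fell. The median of the list ranged from -0.39 without C1 to -0.11 without C50. The test of a difference among the 4 clones passed for Ccna2 (moderated F-test, limma adjusted p 0.0017), Rrm2 (2.2e-05) and Mcm7 (9.5e-06). GFP-negative cells held 117 to 230 TPM of Cenpa and 130 to 217 TPM of Rrm2, within or above the WT range.

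Genes of cholesterol synthesis, the pathway from acetyl-CoA to sterols, were called only as lower, with 11 of 23 not called on average. Of 23 tested, 0 rose and 12 fell on average (52.2%, against 15.3% of all genes; median -0.34), and 13, 9, 8 and 8 fell in C1, C11, C43 and C50 with none higher. Cyp51 (-0.79 ± 0.09), Mvd (-0.75 ± 0.08), Msmo1 (-0.59 ± 0.05) and Fdft1 (-0.46 ± 0.07), all enzymes of the pathway, fell in all 4 clones, and with clone means as replicates Msmo1 alone of these 4 was called. Mvd, the mevalonate diphosphate decarboxylase, was at 25.6, 25.9 and 26.7 TPM in WT, 9.23 and 10.9 TPM in C1 and 13.5 to 20.1 TPM in the other clones. Of 29 genes of glycolysis and hypoxia 2 rose (6.9%, near the 6.51% of all genes) and 12 fell (41.4% against 15.3%), with a median of -0.10 against -0.07 over all genes (-0.21 without C1). By clone, 6 rose and 4 fell in C1, 2 and 12 in C11, 1 and 13 in C43, and 2 and 8 in C50. Over all genes 6.45%, 6.30%, 8.09% and 6.27% rose in these clones and 12.1%, 9.26%, 20.2% and 12.7% fell. The falls in C1 (13.8%) and the rises in C11 and C50 (6.9% each) are thus near the background. Ndrg1, a hypoxia-responsive gene, rose in all 4 clones (0.57 ± 0.07, from 397 to 492 TPM to 519 to 810 TPM; not called with clone means as replicates).

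Of 23 genes of the unfolded protein and integrated stress responses, 2 rose (8.7%, near the 6.51% of all genes) and 6 fell (26.1% against 15.3%). By clone, 5 rose and 5 fell in C1, 1 and 6 in C11, 0 and 9 in C43, and 4 and 5 in C50. The 1 rise in C11 (4.35%) is near the 6.30% of all genes there. Beside Trib3, the amino acid synthesis genes Asns (-0.77 ± 0.05) and Phgdh (-0.83 ± 0.06) fell in all 4 clones, whereas Hspa5, the ER chaperone BiP, rose on average (0.47 ± 0.04) but not in C43 (0.01), and the average without C50 was 0.31. The list's median was -0.09, near the -0.07 over all genes, and 0.01 under quantile normalization; without C43, 4 of its genes rose. Over the left-out libraries and clones this median ranged from -0.14 without WT replicate 1 to -0.02 without C43 replicate 2. Of 21 NF-kB genes 1 rose (4.76%, near the 6.51% of all genes) and 9 fell (42.9% against 15.3%; median -0.32), and Relb, an NF-kB subunit (-1.24 ± 0.10), and Tnfaip3, a feedback inhibitor (-1.20 ± 0.13), fell in all 4 clones. Without any 1 of the WT replicates, or without C1 replicate 2, the number of NF-kB falls was 5, in fits where 8.43% to 13.1% of all genes fell, and the median was -0.15 without C43. Lcn2, the defence protein lipocalin-2, fell on average by 0.84 ± 0.07, from -2.08 in C50 to 0.00 in C11, and the average without C50 was -0.43. Of 20 p53 targets 0 rose and 7 fell, against 15.3% of all genes (median -0.17, or -0.10 without WT replicate 2), with Bbc3, a pro-apoptotic gene, called in all 4 (-0.73 ± 0.10) but not with clone means as replicates. In C1, 5 p53 targets rose and 2 fell (median 0.14), against 1 and 9 in C11 and 0 and 7 in both C43 and C50. The 2 falls in C1 (10%) are near the 12.1% of all genes there, and the 1 rise in C11 (5%) near the 6.30%. The p53 target Gdf15, a secreted stress cytokine, was at 1171 to 1186 TPM in WT, 1837 and 1965 TPM in C1 and 268 to 763 TPM in the other clones. Of 20 NRF2 targets 4 rose, against 6.51% of all genes, and 2 fell, a smaller share than the 15.3% of all genes (median 0.05), and Gsta4 and Srxn1 (0.46 ± 0.05) rose in all 4 clones. By clone, 6 rose and 0 fell in C1, 4 and 2 in C11, 7 and 6 in C43, and 3 and 4 in C50. The 2 falls in C11 (10%) are near the 9.26% of all genes there. Without C1 4 NRF2 targets fell and the median was -0.03 (0.12 without C11), and without WT replicate 3 2 rose and 1 fell.

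Genes induced by cell dissociation were examined because one side had been sorted. Of 29 immediate early genes 5 rose and 4 fell, against 6.51% and 15.3% of all genes, so that the falls are near the background, and the median change was 0.00, or 0.08 under median-ratio scaling. By clone, 2 rose and 13 fell in C43 (median -0.31), where 20.2% of all genes fell, and 11 rose and 4 fell in C50 (median 0.28), where 6.27% of all genes rose, against 5 and 2 in C1 and 5 and 5 in C11. Fos was at 2267, 2815 and 2500 TPM in WT and 2500 to 4072 TPM (median 3425) in GFP-positive libraries, which overlap (0.40 ± 0.06, limma adjusted p 0.0021), with WT vehicle at 3838 to 4257 TPM, and Zfp36, which destabilises inflammatory mRNAs, rose on average by 0.63 ± 0.09. Atf3, a stress-induced transcription factor, fell in all 4 clones, from 1295, 1328 and 1382 TPM to 671 to 1198 TPM (-0.69 ± 0.05, limma adjusted p 2.4e-05). Ccn2, a matricellular growth factor, was above WT in C1 (0.29) and at -0.32, -1.44 and -1.24 in the other clones, and the average of -0.68 was -0.42 without C43. Without C43 replicate 2, or without C1, 7 genes of the list fell, and the median ranged from -0.08 without C50 to 0.11 without C43. Of 16 heat shock genes 2 rose (12.5%, against 6.51% of all genes) and 6 fell (37.5% against 15.3%), with a median of -0.13: Hspb1 (-1.13 ± 0.09) and Hsph1 (-0.82 ± 0.07) fell and Dnajb1 (0.36 ± 0.05) rose in all 4 clones, none of them called with clone means as replicates. Without WT replicate 3 the heat shock falls numbered 3, where 8.43% of all genes fell. Dnajb1 was at 282 to 293 TPM in WT vehicle and 251 to 315 TPM in GFP-positive libraries, against 209 to 232 TPM in WT dDAVP. The part that sorting has in these values was not tested.

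Interferon response genes showed no shift common to all 4 clones. Of 30 tested, 11 rose (36.7%, against 6.51% of all genes) and 0 fell on average (median 0.30), but no gene was called in all 4 clones. C43 had 23 genes higher (median 1.15) and C11 had 12 (median 0.42), while 8 fell and 5 rose in C1 (median -0.21) and 3 fell and 2 rose in C50 (median -0.24). The C50 counts are near the shares over all genes in C50 (12.7% lower and 6.27% higher), whereas the all-gene shares were 12.1% and 6.45% in C1, and 8.09% and 6.30% of all genes were higher in C43 and C11. Ifi44 was at 0.99, 1.87 and 1.56 TPM in WT, 4.13 and 3.53 TPM in C1, 12.1 and 10.5 TPM in C11, 32.8 and 33.4 TPM in C43, and 0.15 and 0.97 TPM in C50 (moderated F-test, limma adjusted p 1.6e-05). Ifit1, an antiviral RNA-binding protein, was at 49.9 to 62.7 TPM in WT, 148 and 153 TPM in C43 and 44.5 and 50.8 TPM in C50. Without C43 the interferon count was 5 rises and 2 falls with a median of 0.05 (0.49 without C1), and the average changes of Ifi44 and Ifit1 were 0.87 and 0.32.

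Counts of the remaining lists stand against 6.51% of all genes higher and 15.3% lower. Of 14 cyclic AMP response genes 2 rose and 2 fell (14.3% each), so that the falls are near the background; Fst, the activin antagonist follistatin, fell in all 4 clones (-1.87 ± 0.25, from 2.54 to 4.97 TPM to at most 1.07 TPM), Areg, an EGF receptor ligand, fell on average (-0.56 ± 0.09) to 8.94 to 15.3 TPM, which spans the 11.8 to 12.7 TPM of WT vehicle, and Pde4b, a cyclic AMP phosphodiesterase, rose on average by 0.37 ± 0.09 but was not called without C11 or C50 or without WT replicate 1 or 3. Without C43 replicate 1, 5 genes of this list rose, and without C43 replicate 2, 4 fell. Of 18 components of the cyclic AMP pathway 1 rose, near the background, and 1 fell, below it; without C43 replicate 1, 3 fell. Of 10 genes of the Notch pathway 0 rose and 4 fell, with Rbpj, its DNA-binding effector, called in all 4 clones (-1.02 ± 0.15). The Notch falls numbered 2 without WT replicate 2, WT replicate 3, C11 replicate 1 or C50 replicate 2. Of 22 Hox genes 0 rose and 3 fell, near the 15.3% of all genes that fell; 0 fell without WT replicate 1 or 3, C11, or any 1 replicate of C1, C11 or C50, 1 fell without WT replicate 2, and 3 rose and 1 fell without C1. By clone, 0 Hox genes rose and 7 fell in C1, and 2 rose in each other clone. Of 10 MHC class I genes 1 rose and 2 fell, near the background shares; without C1, 3 rose and 1 fell. Of 82 cytosolic ribosomal protein genes 0 rose and 19 fell (23.2%). The median of -0.17 became -0.08 without WT replicate 1 and -0.28 without WT replicate 2, and the number of falls was 6 without WT replicate 1, 55 without WT replicate 2, 4 without WT replicate 3 and 10 to 12 without either C1 replicate, C11 replicate 2, C50 replicate 1 or C50. Of 13 mitochondrially encoded genes 7 were tested and 4 rose (median 0.40), 0 without WT replicate 1, 1 without WT replicate 2, 7 without C50 replicate 1 and 2 without C1 or C43. By clone, 3, 0, 7 and 1 of the 7 rose in C1, C11, C43 and C50. The counts of the Hox, ribosomal and mitochondrial lists thus moved with single libraries.

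**Figure D4:**
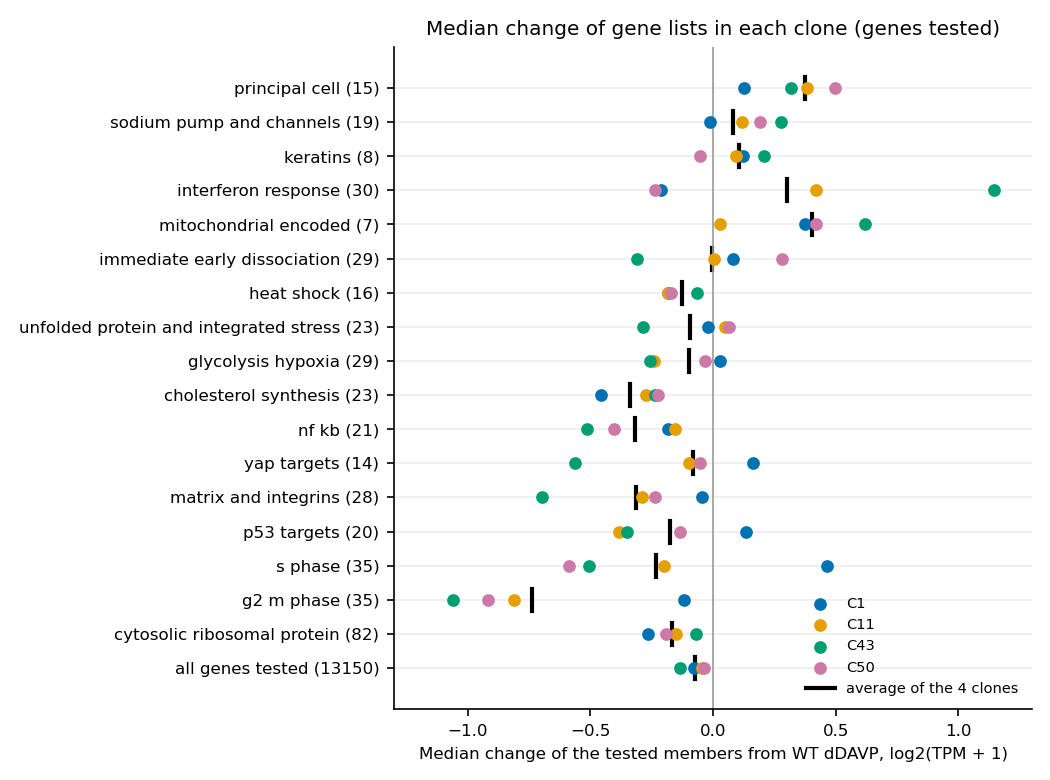
Median change from WT dDAVP, in log2(TPM + 1), of the tested members of gene lists and of all genes, with 1 point per clone and a black bar for the average of the clones (number of genes tested in brackets). The clones lie close together for cholesterol synthesis (-0.46 to -0.23) and far apart for S phase (-0.59 to 0.46) and interferon response genes (-0.24 to 1.15).

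The clones differed among themselves in 4582 of the 13150 genes (34.8%, moderated F-test, limma adjusted p under 0.05), and in 137 of the 324 genes called in all 4 (42.3%). In 576 genes at least 1 clone was called higher and at least 1 lower than WT. The 4 such genes with the largest F were Mgst1, Gsdmc2, Lypd6b and Tmprss4. Mgst1, a microsomal glutathione transferase, was at 17.0, 20.3 and 18.9 TPM in WT, 153 and 159 TPM in C1, 0.67 and 0.50 TPM in C11, 8.53 and 5.77 TPM in C43, and 2.30 and 1.75 TPM in C50. Its GFP-negative fractions followed the clone, with 121 and 145 TPM in C1 and at most 4.44 TPM in the others. Lypd6b, a Ly6-family surface protein gene, was at 12.7, 14.3 and 14.9 TPM in WT, 57.0 and 59.4 TPM in C1, 4.14 and 4.66 TPM in C11, 0.05 and 0.32 TPM in C43, and 19.0 and 24.9 TPM in C50. Gsdmc2, a gasdermin, was at 47.0, 60.1 and 51.5 TPM in WT, 4.40 and 5.52 TPM in C1 and 199 and 216 TPM in C43, and shares sequence with near-identical gasdermin C genes, so its level is uncertain. Tmprss4, a membrane serine protease, was at 105, 113 and 109 TPM in WT, 48.5 and 51.3 TPM in C1, 203 and 202 TPM in C11, 282 and 294 TPM in C43, and 135 and 131 TPM in C50. For Tmprss4 and Gsdmc2, as for Aqp2, C1 was the lowest clone and C43 the highest. The averages of these 4 genes moved by more than 1.5 times with single clones: -1.16 for Mgst1 became -2.55 without C1, -0.34 without C11 and -0.65 without C50; -0.64 for Lypd6b became -1.51 without C1, -0.36 without C11, 0.37 without C43 and -1.05 without C50. For Tmprss4 0.36 became 0.85, 0.19 and 0.02 without C1, C11 and C43, and for Gsdmc2 -0.25 became 0.73, -0.99 and -0.40 without C1, C43 and C50.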

How the data were processed

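RNA from cells on permeable supports was made into libraries with a SMART-Seq HT kit and Nextera XT and sequenced in pairs, per the labels' protocols. The authors deposited 1 table of TPM for the 22 libraries; STAR and RSEM are named in the submitters' processing notes without versions, and the genome build is not given in the sources used here. Of 55415 lines, 980 sharing 79 symbols were summed, giving 54514 entries. TPM give no counts, so no depth or counting interval can be stated. In all, 5 mitochondrial genes (mt-Atp6, mt-Atp8, mt-Co2, mt-Co3, mt-Nd4l) are listed at 0 in all 11 libraries compared.

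Genes with a mean of at least 1 TPM over the 11 libraries were fitted as log2(TPM + 1) with limma 3.58.1 in R 4.3.3, with a mean per group, a variance trend and Benjamini-Hochberg adjustment over all genes. Contrasts were each clone and the average of the 4 clones against WT dDAVP, with a moderated F-test among clones. GFP-negative and vehicle values come from a fit of all 22 libraries. Single values were tested by exact permutation over libraries. On simulated data a log2 change of 1.0 was called on average in 85.1% of genes and in all 4 clones in 67.2%. For a change of 0.5 these shares were 61.2% and 23.9%. The simulation gave all 4 clones the same change, without differences between clones, and changed only more abundant genes. Its shares do not carry over to genes in which the clones differ or to low genes.

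Members and gene lists were chosen with earlier results of these data known. Genes are named by rule: GFP and Aqp2, the 12 rises and 12 falls with the largest change in their weakest clone among genes called on average and in all 4 clones, with a mean of at least 5 TPM, up to 6 per list, and the 4 genes called in opposite directions with the largest F. Piezo2, Ppic, Upk3bl, Jund and Aqp5 were named after their values were seen. Alternatives were other pseudocounts, filters, scalings, variance models and designs, and leaving out each library or clone.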

Additional observations from a re-analysis of the deposited data

Results flagged for a closer look

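Of the 86 genes named in the report, 66 differed among the 4 clones in their change from WT dDAVP (moderated F-test, limma adjusted p under 0.05, against 34.8% of all genes tested). Each value below is the gap in log2(TPM + 1) between the highest and the lowest clone. The highest clone is the one with the most positive change. The genes were named with their values known, so the share of them that differ is a description.

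With C1 highest and C43 lowest, the gap was 5.65 for Lypd6b, 2.97 for Col4a1, 2.61 for Gdf15, 2.4 for Fn1, 1.94 for Rrm2, 1.74 for Ccn2, 1.51 for Ccna2 and 1.44 for Ankrd1. C1 was the highest clone and C43 the lowest for a gap of 1.21 for Mcm7, 1.11 for Ajuba, 1.05 for Tnfrsf12a, 1.02 for Cldn6, 0.841 for Lamb3, 0.793 for Upk3bl, 0.756 for Trib3 and 0.62 for Jund. The gap from C1 up to C43 was 5.14 for Gsdmc2, 2.5 for Tmprss4, 2.42 for Fxyd4, 1.78 for Aqp2, 1.32 for Aldh3b2, 1.05 for Spag1, 0.715 for Atf3 and 0.498 for Krt23. With C43 highest and C1 lowest, the gap was 0.338 for Msmo1. C1 was the highest clone and C50 the lowest for a gap of 2.59 for Ppic, 2.27 for Aqp6, 1.44 for Spp1, 1.04 for Birc5, 0.911 for Relb, 0.751 for Cenpa, 0.721 for Phgdh and 0.523 for Asns. The gap from C50 up to C1 was 0.286 for Dnajb1. With C50 highest and C43 lowest, the gap was 1.96 for Slc4a9, 1.28 for Rhcg, 0.989 for Pde4b, 0.947 for Hspa5, 0.88 for Hsph1, 0.626 for Fos and 0.524 for Srxn1. C43 was the highest clone and C50 the lowest for a gap of 4.5 for Ifi44, 1.65 for Emp3, 1.64 for Ifit1, 0.916 for Hspb1 and 0.695 for Gsta4. The gap from C50 up to C11 was 2.83 for Aqp4, 2.08 for Lcn2, 1.27 for Arhgdib and 0.992 for Aqp5. With C50 highest and C1 lowest, the gap was 3.76 for Fxyd2, 0.901 for Ghr, 0.822 for Krt19 and 0.779 for Zfp36. C11 was the highest clone and C1 the lowest for a gap of 1.4 for Sgk1, 0.875 for Mvd, 0.73 for Cyp51 and 0.502 for Dhrs3. The gap from C11 up to C1 was 6.63 for Mgst1, 1.42 for Slc4a11, 0.569 for Ndrg1 and 0.364 for Epcam. With C11 highest and C43 lowest, the gap was 0.589 for Areg and 0.382 for Tpd52l1. C43 was the highest clone and C11 the lowest for a gap of 0.774 for Basp1. The gap from C11 up to C50 was 2.16 for Hsd11b2.

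For Timp3, the second C43 GFP-positive library, at 0.09 TPM, lay apart from the other 7 GFP-positive libraries, which held 0.69 to 1.44 TPM. Such a gap arises by chance in about 1 in 20 groups. All 8 values were far below the 21.0 to 25.3 TPM of WT cells.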

How the results depend on the processing

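Counts of genes called depended on the replicate taken and on the filter. Testing all genes above 0 gave 1890 on average, 1510 in C1, 1283 in C11, 1591 in C50 and 178 in all 4 clones. A fit of all clone libraries as 1 group gave 476 on average, and clone means as replicates 140 (2063 at an unadjusted p under 0.05). With a change of at least 1 log2 unit asked for, 280 genes were called on average, 392 in C1, 390 in C11, 762 in C43, 484 in C50 and 64 in all 4. The libraries with more genes detected leave 1 residual degree of freedom, and limma called 0 genes in each comparison there, against 2918 on average, 2190 in C1, 2097 in C11, 2852 in C43, 2303 in C50 and 1983 among clones at an unadjusted p under 0.05. Same-numbered libraries of the WT dDAVP and GFP-positive groups did not deviate together on average (20 pairs, mean r -0.0354, range -0.167 to 0.155). Deviations of a clone's libraries from the clone mean mirror each other, so the pairs between clones are not independent. The GFP-negative libraries were left out, so whether numbers pair the fractions of a clone was not tested. With the replicate number as a block, which leaves WT replicate 3 without weight, 1165 genes were called on average, 1155 in C1, 867 in C11, 2211 in C43, 1190 in C50, 137 in all 4 and 3022 among clones.

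With 1 library or clone left out, where a lone library is assumed to vary like the other groups, the counts ranged from 1532 to 3311 on average, 897 to 2922 in C1, 790 to 2530 in C11, 2630 to 3896 in C43, 1050 to 3024 in C50, 155 to 766 in all 4 and 1435 to 5623 among clones. For the 86 genes named, 2271 of 2487 values under up to 29 alternatives kept their direction and side of the threshold, 209 were no longer called, 5 became called and 2 reversed: Gsdmc2 to 0.73 without C1 and Lypd6b to 0.37 without C43. Over the settings that leave out a library or clone, Gsdmc2 ranged from -0.99 to 0.73 and Lypd6b from -1.51 to 0.37. The cause was not tested, beyond the clones' own values in the report. None of the 85 named genes called on average kept its call in the libraries with more genes detected. Of the 85, 50 were also lost with clone means as replicates and 34 with all clone libraries as 1 group. The other 35 kept their call in each alternative they were tested in, except the libraries with more genes. The minimum change of 1 log2 unit was applied to counts only. Some of the 35, such as Msmo1 and Spink8, changed by less than that. Over the 30 gene lists, 844 of 868 medians moved by less than the SD of the list's 4 clone medians, and 24 moved by more. This bar is widest for lists in which the clones disagree, so the count does not measure stability. Taking the set with more or fewer genes as a factor, chosen after seeing the data, gave 2942 genes on average and 354 in all 4. TPM keep no depth, so how far counting error limits low values such as those of Fst, Aqp4 or Slc4a9 is unknown.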
